A study of Homo sapiens with 6 samples.

Results

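The 31 genes described here make cholesterol and fatty acids, control that synthesis or, for NPC1 and STARD4, carry sterols. They were listed by symbol for their role in the pathway, with earlier results of these data known. All 31 were found among the 62111 gene IDs that both deposited tables list. RNA was sequenced from K562, an established human leukaemia line (chronic myeloid leukaemia in blast crisis) that expresses erythroid genes. There were 3 libraries labelled SF3B1-K700E and 3 labelled with wild-type SF3B1 (WT). SF3B1 is a core protein of the spliceosome that helps to recognise intron branch points, and K700E is a substitution in it that recurs in blood cancers. The labels give no treatment. They do not say whether the K700E cells are 1 clone, how the allele was introduced or whether replicates are separate cultures.

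Cholesterol is built in the cytosol and endoplasmic reticulum. Acetyl-CoA is turned into mevalonate, then into isoprenoid units, squalene and lanosterol, and lanosterol is trimmed to cholesterol. Fatty acids start from the same acetyl-CoA, which is carboxylated to malonyl-CoA, joined into palmitate, elongated and desaturated. Most of these genes are targets of the sterol regulatory element-binding proteins (SREBPs), transcription factors encoded by SREBF1 and SREBF2. SCAP carries an SREBP to the Golgi for cleavage when sterols are scarce, and INSIG1 holds it back when sterols are plentiful. Growing cells in culture can make cholesterol or take it up from serum, and the pathway is known to respond to both.

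SREBPs act at promoters together with NF-Y, which binds CCAAT. The promoter window of each gene (250 bases before to 50 after an annotated start, RefSeq, GRCh38.p14) was searched on both strands for 4 motifs, none of which contains another. Of the 31 genes 27 had a window. CCAAT was found for 20 of 27 (74.1%), against 39.7% of all genes with a window and 42.9% of the 10027 with a window that were tested for expression. The GC box GGGCGG was found for 26 of 27 (96.3%), against 75.9% of tested genes, and the E-box CACGTG for 4 of 27 (14.8%), against 12.8%. The sterol response element spelled TCACNCCAC was found in the window of SREBF2 alone among the 27, against 1.33% of tested genes. A match describes these letters only. Stretches of 60 bases upstream of a start are printed here, in the direction of the gene and with 1 match in capitals. The first carries the sterol response element of SREBF2. The other 4 carry CCAAT, or its complement ATTGG. HMGCS1, MSMO1 and STARD4 were printed because their RNA varied more than 3-fold between the WT libraries. INSIG1, at 2.88-fold, was added outside that cut. CCAAT was also found for genes that were steady between the WT libraries, such as NSDHL (1.09-fold) and EBP (1.11-fold). IDI1 (3.31-fold), CYP51A1 (3.08-fold) and FASN (3.01-fold) also varied more than 3-fold and are not printed. IDI1 has no CCAAT at its most upstream start, though it has at others, CYP51A1 has none in its window, and FASN has no window.
SREBF2, chr22:41832947-41833006, plus strand: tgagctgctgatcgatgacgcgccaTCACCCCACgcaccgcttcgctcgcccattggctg
HMGCS1, chr5:43313480-43313539, minus strand: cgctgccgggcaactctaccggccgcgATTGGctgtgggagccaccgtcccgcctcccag
MSMO1, chr4:165327608-165327667, plus strand: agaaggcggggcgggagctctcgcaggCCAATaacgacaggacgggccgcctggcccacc
STARD4, chr5:111512633-111512692, minus strand: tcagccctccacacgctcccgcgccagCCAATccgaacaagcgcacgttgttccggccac
INSIG1, chr7:155297681-155297740, plus strand: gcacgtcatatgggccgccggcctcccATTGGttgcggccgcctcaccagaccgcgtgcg

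Expression is given as TPM (transcripts per 1000000), a level per gene length. The libraries held 111628565, 123015114 and 126480630 read ends for K700E and 104642332, 133602057 and 136588117 for WT, and no lipid gene had fewer than 1216 read ends in any library. All 9 erythroid genes used to check K562 identity were at 27.9 TPM or more. SF3B1 itself averaged 138 ± 21.5 TPM in K700E and 119 ± 22.6 TPM in WT (SD, n = 3 each; limma adjusted p = 0.602), and its level does not check a label that names a substitution. Summed markers of fibroblasts ran from 3.57 to 5.49 TPM in K700E and from 1.56 to 2.75 TPM in WT, with COL1A1 the 1 gene of 4 tested. Those of hepatocytes ran from 0.777 to 2.71 TPM in K700E and from 0.0931 to 1.06 TPM in WT, and those of adipocytes from 0.133 to 0.388 TPM in K700E and from 0.0772 to 0.121 TPM in WT, with PLIN1 at 0. Those of macrophages ran from 0.374 to 0.776 TPM in K700E and from 0.186 to 0.451 TPM in WT, with CD68 listed at 0, and those of lymphocytes from 3.29 to 4.56 TPM in K700E and from 3.60 to 3.98 TPM in WT. Their part in the results was not tested. WT replicate 3 lay between the other 2 WT libraries in 75.9% of the genes tested, and without it limma called 0 genes of any kind, with 1462 at an unadjusted p under 0.05. Whether WT replicate 3 is independent of the other 2 cannot be told from TPM, and if it is not, the WT SDs and all p-values given here are too small. In bulk RNA, fewer cells that express a gene and less RNA per cell cannot be told apart.

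None of the 31 lipid genes passed the test between K700E and WT. The test was limma on log2(TPM + 1) across the 15493 genes that averaged 1 TPM or more, two-sided, with Benjamini-Hochberg adjustment at 0.05. It called 214 genes in all (1.38%), 178 higher (1.15%) and 36 lower (0.232%) in K700E. With GC correction the calls were 297 higher and 247 lower, and with limma-voom 246 higher and 102 lower. At an unadjusted p under 0.05 there were 5 of the 31 (16.1%), against 16.5% of all genes, so their share was near the background. The count of 0 was the same with limma-voom on the recovered reads. There 3 of the 31 had an unadjusted p under 0.05, against 3653 of 22158 genes in all. The 5 genes were NPC1, MVK, ACLY, DHCR7 and NSDHL, all higher in K700E.

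Fitted differences leaned upward in most of the 31 genes, and so did those of genes in general. The median log2 difference, K700E minus WT, was 0.32 over the 31 genes and 0.13 over all genes tested, which leaves 0.19 relative to the median gene. Of the 31, 24 lay above the median gene. Without WT replicate 2 that offset was 0.013, and without WT replicate 3 it was 0.23. With TMM scaling the median over all genes was 0.0018 and the offset was 0.18, so the lean of genes in general depended on scaling. In 7 of the 31 (22.6%) the K700E and WT libraries did not overlap, 6 higher and 1 lower in K700E, against 24.0% of all genes (19.0% higher, 4.99% lower). The 6 higher were MVK, PMVK, NSDHL, DHCR7, NPC1 and ACLY, and the 1 lower was FADS2. After GC correction MVK, NSDHL, DHCR7 and ACLY overlapped between groups, while PMVK, NPC1 and FADS2 did not.

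**Figure D1:**
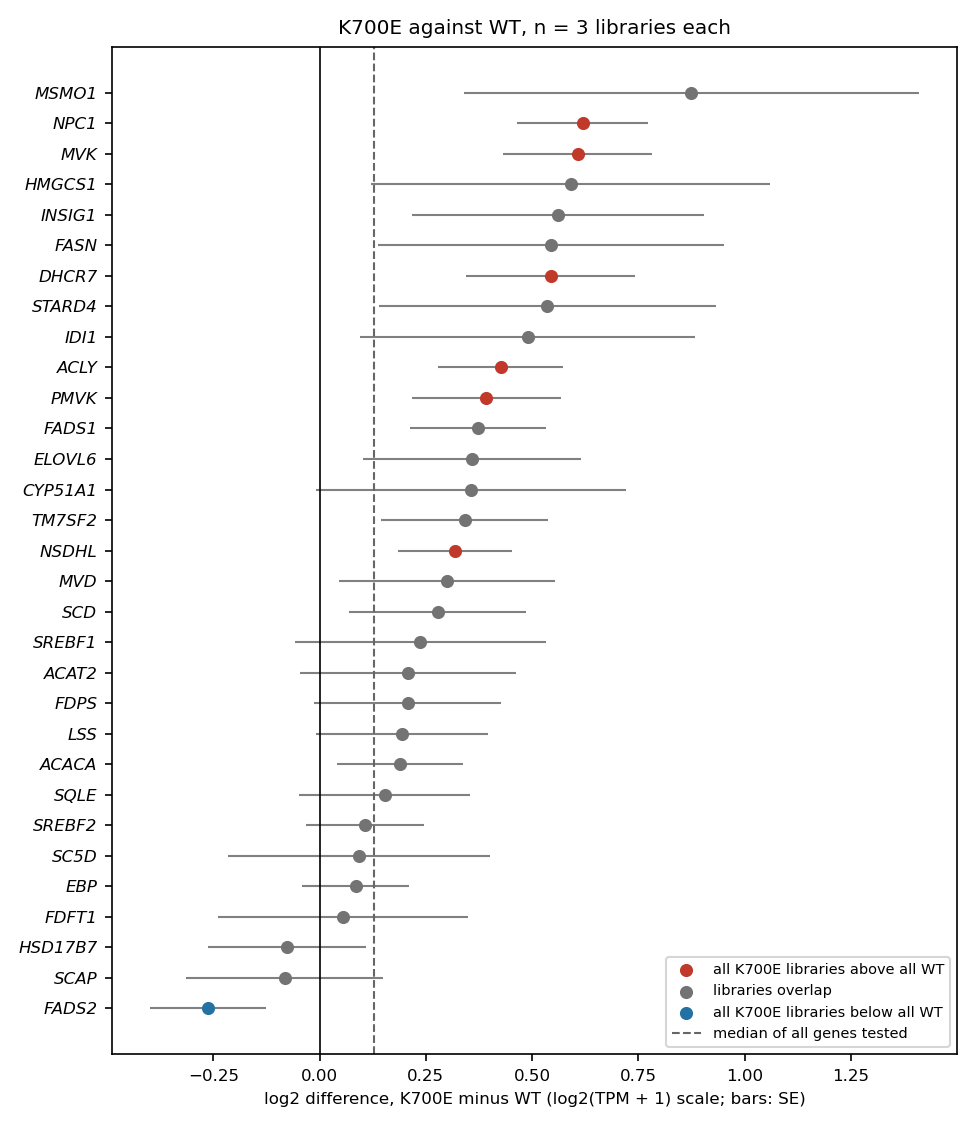
Fitted log2 difference, K700E minus WT, for the 31 lipid genes on the log2(TPM + 1) scale, with bars of 1 SE (n = 3 libraries each). Red points mark genes whose K700E libraries all lay above all WT libraries, blue the opposite, and the dashed line is the median of all genes tested (0.13); the widest bar belongs to MSMO1 (0.87, SE 0.53).

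In the mevalonate branch none of 7 genes passed the test, and all 7 lay above the median gene. MVK, mevalonate kinase (chr12:110011599-110035930, GRCh37), had 13.4, 16.7 and 17.1 TPM in K700E replicates 1, 2 and 3, against 10.02, 8.37 and 11.7 TPM in WT replicates 1, 2 and 3. Every K700E library was above every WT library. Its log2 difference was 0.61 (SE 0.17, limma adjusted p = 0.153), or 1.57-fold in the means. PMVK, the kinase of the next step, had 50.4, 42.8 and 43.6 TPM in K700E and 27.9, 41.9 and 34.7 TPM in WT (log2 difference 0.39, SE 0.18, limma adjusted p = 0.323). The groups did not overlap, but K700E replicate 2 and WT replicate 2 lay within 1 TPM of each other.

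The other 5 mevalonate genes overlapped between groups. HMGCS1, the cytosolic HMG-CoA synthase, averaged 256 ± 71.0 TPM in K700E and 193 ± 118 TPM in WT (SD, n = 3 each). IDI1, the isopentenyl diphosphate isomerase, averaged 98.3 ± 17.2 TPM in K700E and 77.1 ± 42.1 TPM in WT. MVD, the decarboxylase that makes isopentenyl diphosphate, averaged 99.3 ± 11.8 TPM in K700E and 83.4 ± 27.7 TPM in WT. In each of these the WT spread was wider than the difference of the means. FDPS, farnesyl diphosphate synthase, averaged 247 ± 30.2 TPM in K700E and 219 ± 61.7 TPM in WT, and ACAT2, a thiolase that makes acetoacetyl-CoA, averaged 197 ± 13.7 TPM in K700E and 178 ± 64.8 TPM in WT. For ACAT2, 29.9% of the exon bases are shared with TCP1 on the opposite strand, which averaged 475 TPM. For HMGCS1, 45.8% are shared with an unnamed gene listed at 0, and for FDPS 20.04% with RUSC1-AS1, at 12.6 TPM, both on the opposite strand. Whether counting used strand is not given here, so reads from these stretches cannot be told apart.

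The 3 genes between farnesyl diphosphate and lanosterol sat closest to the median gene, at 0.02 above it in the median. LSS, lanosterol synthase, had 38.7, 47.7 and 57.2 TPM in K700E and 34.7, 39.4 and 51.1 TPM in WT (log2 difference 0.19, SE 0.20, limma adjusted p = 0.683). SQLE, squalene epoxidase, had 365, 408 and 292 TPM in K700E and 397, 250.3 and 318 TPM in WT (log2 difference 0.15, SE 0.20, limma adjusted p = 0.756). In both the groups overlapped. FDFT1, squalene synthase, averaged 291 ± 74.9 TPM in K700E and 286 ± 98.5 TPM in WT.

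Among the 8 genes from lanosterol to cholesterol none passed the test. The groups did not overlap for 2 of them (25%, against 24.0% of all genes), both higher in K700E. DHCR7, the dehydrocholesterol reductase of a final step (chr11:71145457-71159439, GRCh37), had 175, 217 and 249.6 TPM in K700E and 154, 114 and 173 TPM in WT. The lowest K700E value stood just above the highest WT value. The log2 difference was 0.54 (SE 0.20, limma adjusted p = 0.239). NSDHL, a sterol dehydrogenase that removes methyl groups from lanosterol together with MSMO1, had 64.5, 77.2 and 80.4 TPM in K700E and 60.7, 55.8 and 60.3 TPM in WT (log2 difference 0.32, SE 0.13, limma adjusted p = 0.296). Its WT libraries were nearly level and its K700E libraries were not.

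MSMO1, the methylsterol oxidase, had the highest fitted difference of the 31 genes and the widest error. It averaged 163 ± 38.0 TPM in K700E and 107 ± 72.7 TPM in WT (log2 difference 0.87, SE 0.53, limma adjusted p = 0.467). CYP51A1, the lanosterol demethylase, averaged 88.1 ± 9.57 TPM in K700E and 75.4 ± 38.6 TPM in WT, and TM7SF2, a sterol reductase, 29.2 ± 6.30 TPM in K700E and 22.7 ± 3.58 TPM in WT. EBP, the sterol isomerase, averaged 92.8 ± 8.01 TPM in K700E and 87.4 ± 5.23 TPM in WT, and SC5D, the sterol desaturase, 12.9 ± 2.42 TPM in K700E and 12.7 ± 5.47 TPM in WT. HSD17B7, the keto-reductase of demethylation, averaged 32.8 ± 4.82 TPM in K700E and 34.9 ± 6.60 TPM in WT, 1 of only 3 genes of the 31 with a fitted difference below 0, with SCAP and FADS2. All 6 overlapped between groups. The fitted differences of EBP, SC5D, FDFT1 and SREBF2 were under 0.11 and turned negative once the libraries were rescaled to a common median. Of EBP's exon bases 57.1% are shared on the same strand with an unnamed gene at 0.0577 TPM.

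**Figure D2:**
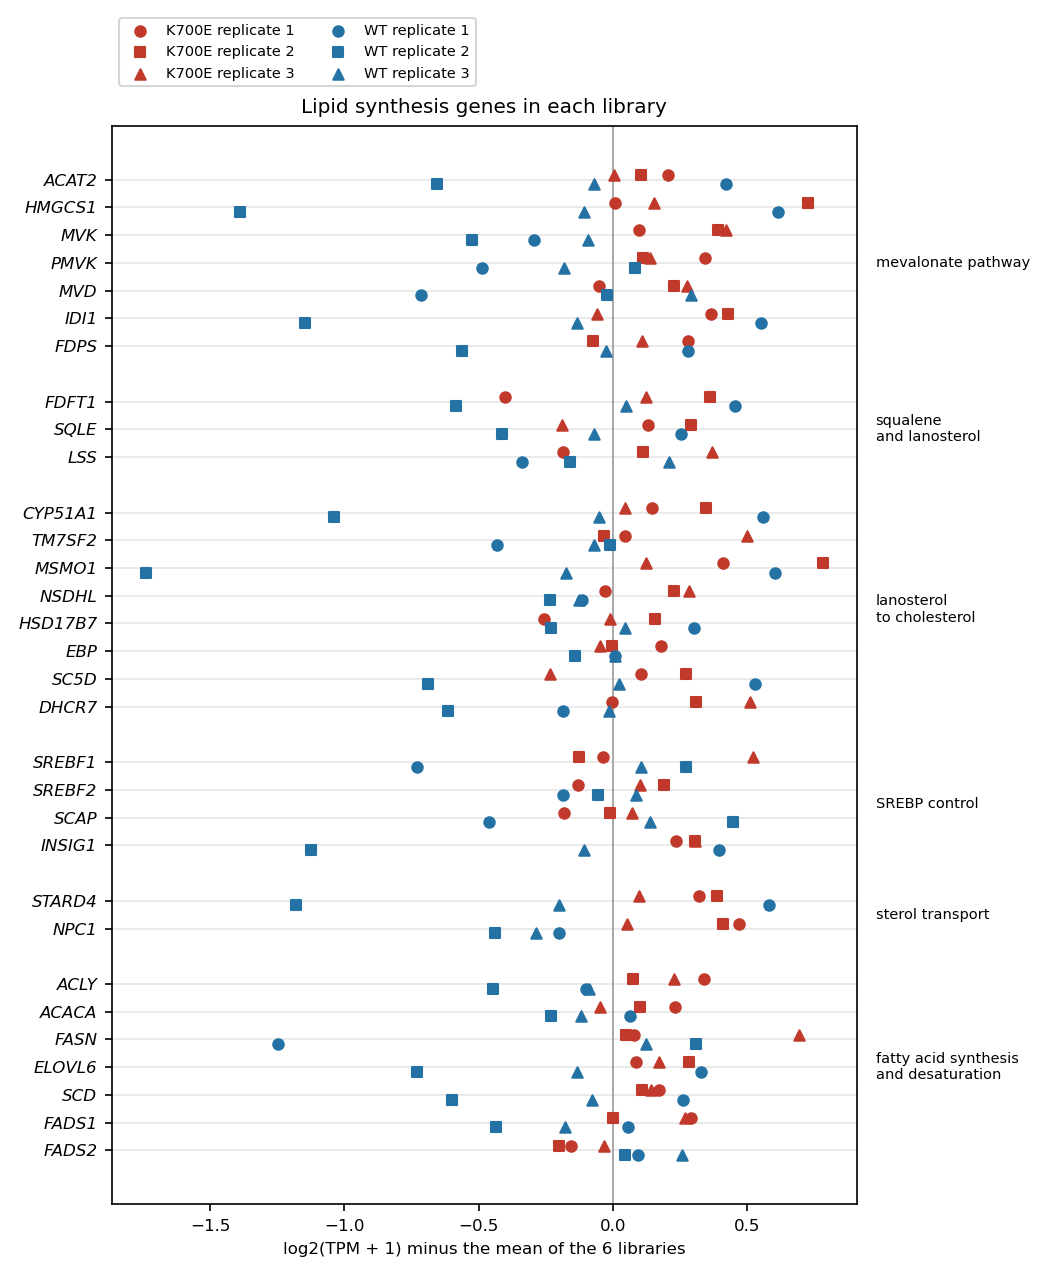
Level of each of the 31 genes in each library, as log2(TPM + 1) minus the mean of that gene over the 6 libraries, grouped by role. Red symbols are K700E and blue symbols WT; WT replicate 2 (blue square) is the lowest WT library in 23 of the 31 genes and lies farthest left in MSMO1 and HMGCS1.

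The regulators of the pathway did not pass the test. SREBF1, which encodes the SREBP linked mainly to fatty acid genes, had 38.5, 36.2 and 57.2 TPM in K700E and 23.5, 48.0 and 42.7 TPM in WT (log2 difference 0.24, SE 0.30, limma adjusted p = 0.742). SREBF2, linked mainly to cholesterol genes and shown above with a sterol response element in its promoter, had 125, 156 and 147 TPM in K700E and 120.3, 132 and 146 TPM in WT (log2 difference 0.11, SE 0.14, limma adjusted p = 0.756). SREBF2 was among the steadier of the 31 genes, with a ratio of 1.21 between its highest and lowest WT library. INSIG1 had 301, 316 and 316 TPM in K700E and 336, 117 and 237 TPM in WT (log2 difference 0.56, SE 0.34, limma adjusted p = 0.468). Its K700E libraries were almost equal, at a ratio of 1.05, and all 3 lay inside the WT range. SCAP averaged 59.1 ± 5.27 TPM in K700E and 64.6 ± 19.7 TPM in WT.

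Of the sterol carriers, NPC1 came closest to the threshold among the 31 genes. NPC1, the membrane protein that exports cholesterol from late endosomes and lysosomes (chr18:21111406-21166470, GRCh37), had 92.8, 89.2 and 69.3 TPM in K700E and 58.0, 49.0 and 54.7 TPM in WT. The groups did not overlap and K700E replicate 3 was nearest to WT. It averaged 83.8 ± 12.6 TPM in K700E and 53.9 ± 4.53 TPM in WT (SD, n = 3 each), 1.55-fold, with a log2 difference of 0.62 (SE 0.16, limma adjusted p = 0.116). Over the alternatives its adjusted p ran from 0.0655 with GC correction to 0.407 without WT replicate 3. RMC1 on the opposite strand shares 4.16% of its exon bases. STARD4, a cytosolic sterol carrier, had 44.8, 47.0 and 38.2 TPM in K700E and 53.9, 15.2 and 30.9 TPM in WT (log2 difference 0.54, SE 0.40, limma adjusted p = 0.550). Here the K700E libraries lay between WT replicate 3 and WT replicate 1.

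In fatty acid synthesis and desaturation none of 7 genes passed the test and 6 had a fitted difference above 0. The groups did not overlap for 2 of the 7 (28.6%, against 24.0% of all genes), 1 in each direction. ACLY, which makes cytosolic acetyl-CoA from citrate (chr17:40023170-40075275, GRCh37), had 168, 139 and 155 TPM in K700E and 124, 96.9 and 124 TPM in WT (log2 difference 0.43, SE 0.15, limma adjusted p = 0.218). All K700E libraries were above all WT libraries. FADS1, a desaturase of polyunsaturated fatty acids, had 419, 342 and 412 TPM in K700E and 356, 252 and 302 TPM in WT (log2 difference 0.37, SE 0.16, limma adjusted p = 0.306). Its groups overlapped at 1 point, where K700E replicate 2 was below WT replicate 1.

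FADS2 encodes the desaturase that acts before FADS1 (chr11:61560452-61634826, GRCh37). In the deposited annotation FADS1 (chr11:61567099-61584475) lies within that span on the opposite strand. FADS2 was the only gene of the 31 with all K700E libraries below all WT libraries. It had 19.7, 19.1 and 21.6 TPM in K700E and 23.7, 22.8 and 26.6 TPM in WT (log2 difference -0.26, SE 0.14, limma adjusted p = 0.391). The ratio of FADS1 to FADS2, a pair chosen after its values were seen, was 21.2, 17.9 and 19.1 in K700E and 15.0, 11.1 and 11.3 in WT. The ratio did not overlap between groups and was 1.56-fold higher in K700E in the means. The exact two-sided permutation p was 0.1, the smallest that 3 libraries against 3 allow. Any ratio without overlap gives this p, so for a pair chosen after its values were seen it adds nothing. The annotated exons of these genes share 142 bases on opposite strands. Those of FADS2 also share 49 bases on the same strand with FEN1, which averaged 180 TPM. How reads from these stretches were assigned is not given here.

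SCD, the desaturase that makes oleate, was the most abundant of the 31 genes per length, at 1121, 1073 and 1098 TPM in K700E and 1195, 657 and 943 TPM in WT. The K700E libraries were level with one another and inside the WT range (log2 difference 0.28, SE 0.21, limma adjusted p = 0.553). FASN, fatty acid synthase, averaged 85.3 ± 23.0 TPM in K700E and 63.0 ± 30.4 TPM in WT. ELOVL6, which elongates palmitate, averaged 42.4 ± 2.96 TPM in K700E and 34.3 ± 12.5 TPM in WT. ACACA, which makes malonyl-CoA, averaged 28.8 ± 2.87 TPM in K700E and 25.2 ± 2.73 TPM in WT. These 3 genes overlapped between groups.

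**Figure D3:**
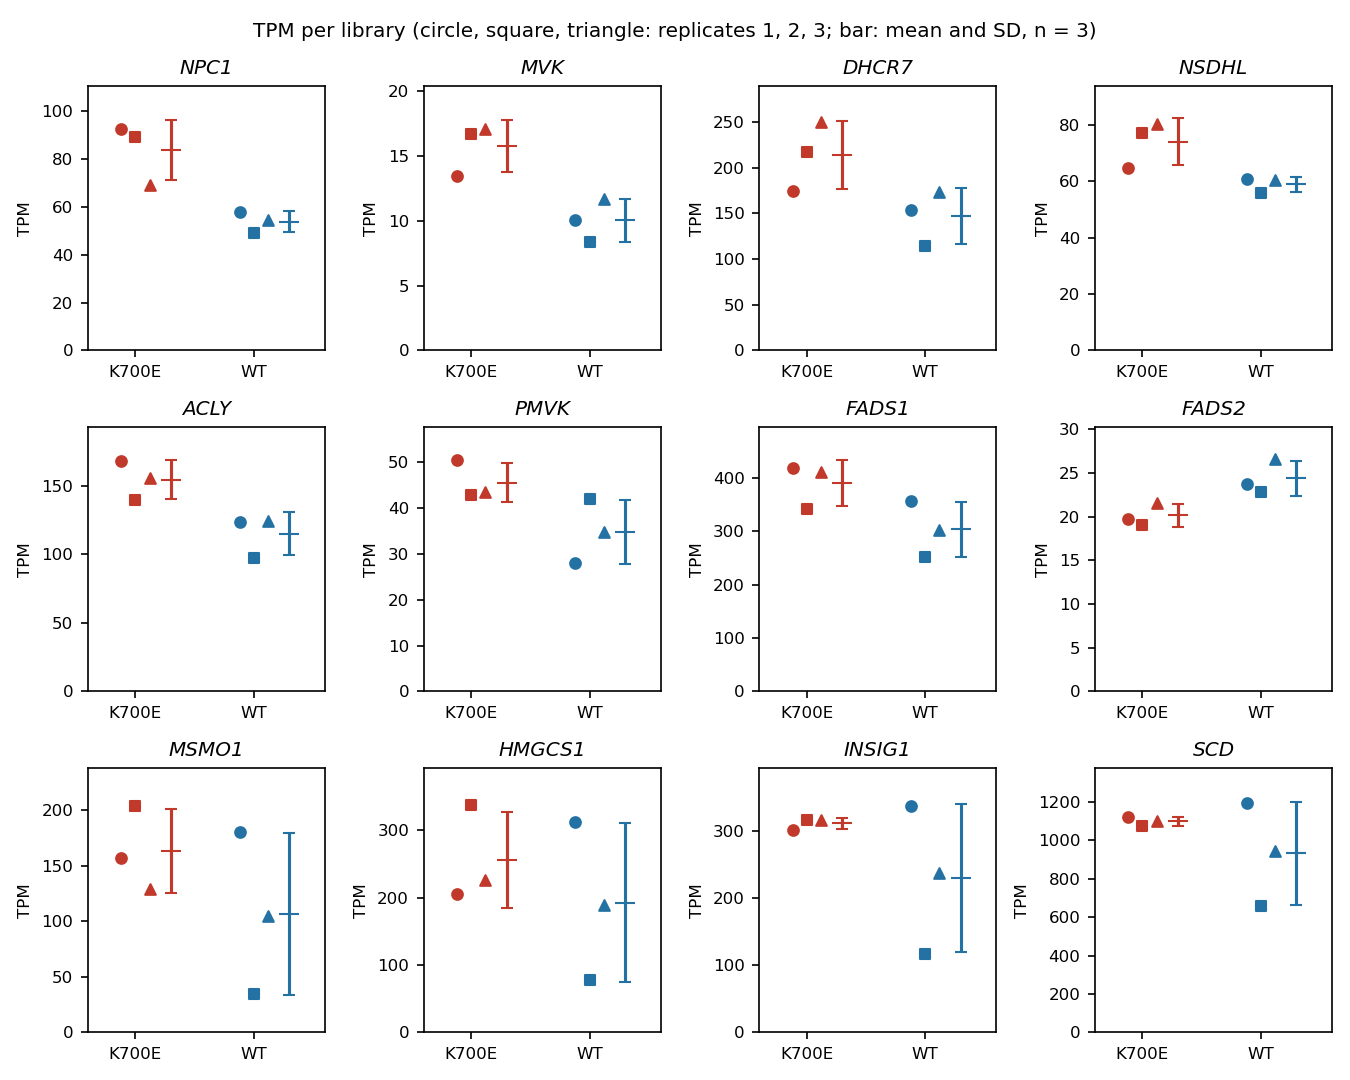
TPM of 12 of the genes in each library, K700E (red) left of WT (blue), with the mean and SD of 3 libraries beside the points and axes that start at 0. The top row and ACLY, PMVK and FADS2 show groups that do not overlap, and FADS1 groups that overlap at 1 point. The bottom row shows MSMO1, HMGCS1, INSIG1 and SCD, whose highest WT library was 5.19, 4.04, 2.88 and 1.82 times the lowest.

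The larger feature of these genes was the spread between WT libraries. The ratio of the highest to the lowest library exceeded 2 for 0 of the 31 genes in K700E and for 13 of the 31 in WT, against 11.5% of all genes in K700E and 18.4% in WT. Shares of all genes, here and below, include genes down to a mean of 1 TPM and were not matched for level. The median ratio over the 31 genes was 1.26 in K700E and 1.80 in WT, against 1.32 and 1.45 over all genes for K700E and WT. The WT ratio was 5.19 for MSMO1, 4.04 for HMGCS1, 3.55 for STARD4, 3.31 for IDI1, 3.08 for CYP51A1, 3.01 for FASN and 2.88 for INSIG1. MSMO1 had 157, 204 and 129 TPM in K700E and 180.1, 34.7 and 105 TPM in WT. HMGCS1 had 205, 338 and 227 TPM in K700E and 312, 77.3 and 189 TPM in WT. In both, WT replicate 2 stood apart as the lowest library of all 6.

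The WT libraries stood in a common order in many of these genes. WT replicate 1 was the highest of the WT libraries in 18 of 31 and WT replicate 2 the lowest in 23, against 49.7% and 49.7% of all genes. WT replicate 3 was between them in 23 of 31, near the 75.9% of all genes. All K700E libraries lay above WT replicate 2 in 22 of 31 genes, against 50.3% of all genes, and all lay below WT replicate 1 in 12, against 23.5%. In 12 genes all K700E libraries were inside the WT range, against 24.3%. The summed TPM of the 31 genes was 4742, 5028 and 4821 in K700E and 4976, 2985 and 4156 in WT, so that the K700E sums were near WT replicate 1 and WT replicate 2 was low. By role, the mevalonate genes summed to 949, 1025 and 904 TPM in K700E and 1047, 522 and 817 TPM in WT. Those from lanosterol to cholesterol summed to 652, 765 and 706 TPM in K700E and 678, 384 and 575 TPM in WT. The fatty acid genes summed to 1872, 1719 and 1867 TPM in K700E and 1802, 1160 and 1530 TPM in WT.

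GC content moved with the difference between WT replicate 1 and WT replicate 2 in genes at large. WT replicate 1 was above WT replicate 2 in 89.6% of genes with a transcript GC content up to 44.9% and in 15.1% of those over 53.8%, bounds that split the genes into 3 groups of like size. Among the lipid genes all 9 up to the lower bound, such as MSMO1 (38.6% GC), STARD4 (38.3%) and HMGCS1 (41.6%), were higher in WT replicate 1. Those over the upper bound were mixed, with 8 of 14 lower and 6 higher in WT replicate 1. The 3 lowest log2 differences between WT replicate 1 and WT replicate 2 were -1.55 for FASN (65.3% GC), -1.003 for SREBF1 (63.5%) and -0.91 for SCAP (60.9%). After each library was corrected for GC content these 3 differences were -0.52, -0.11 and -0.22, while that of MSMO1 was 1.77 and that of HMGCS1 1.56.

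The lipid genes still differed between the WT libraries after this correction. WT replicate 1 was above WT replicate 2 in 28 of the 31 genes, against 51.0% of all genes, and before correction in 23 of 31, against 55.8%. The median log2 difference between these libraries was 0.46 over the 31 genes and 0.01 over all genes, and before correction 0.43 and 0.09. The ratio of the highest to the lowest library exceeded 2 for 0 of the 31 genes in K700E, against 5.51% of all genes, and for 7 of the 31 in WT, against 3.99%. Those 7 were MSMO1 at 3.40, HMGCS1 at 2.96, INSIG1 at 2.52, IDI1 at 2.40, STARD4 at 2.25, CYP51A1 at 2.18 and FDPS at 2.03. In the comparison of genotypes, the corrected libraries did not overlap for PMVK, NPC1 and FASN, higher in K700E, and for FADS2, lower in K700E, which is 4 of 31 against 29.4% of all genes.

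**Figure D4:**
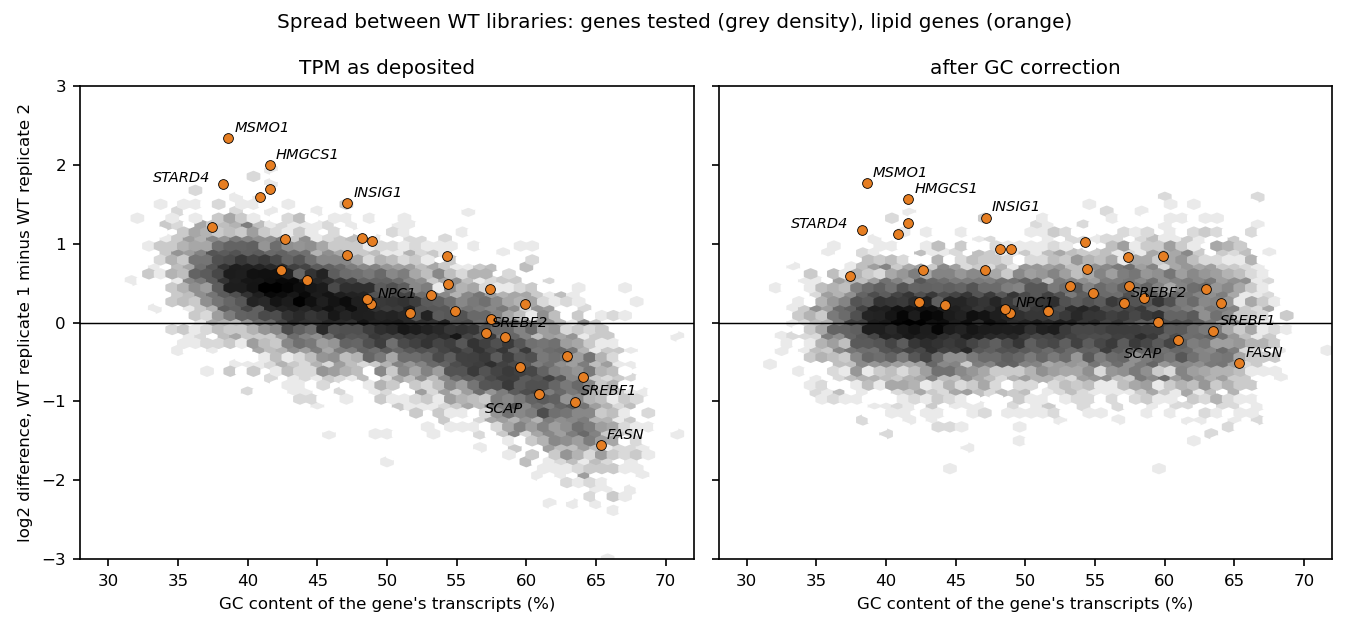
Log2 difference between WT replicate 1 and WT replicate 2 against transcript GC content, as deposited (left) and after GC correction (right), with all genes tested as grey density and the 31 lipid genes in orange. The slope over all genes is gone on the right, where 7 of the 31 genes, MSMO1 and HMGCS1 highest, lie above 1. Of these 7, FDPS was below 1 as deposited.

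Genes of neighbouring pathways did not pass the test either. Of 82 further genes in 5 lists, 76 were tested, 0 passed with limma and 11 (14.5%) had an unadjusted p under 0.05, against 16.5% of all genes. With limma-voom 82 were tested, 0 were called and 10 had an unadjusted p under 0.05, against 3653 of 22158 genes in all. With GC correction 2 of the 76 were called, ACADVL and NR1H3, both higher in K700E, against 3.6% of all genes under that correction. With GC correction and the replicate number as a block 0 were called. An unadjusted p under 0.05 was reached by 12, against 3057 of 15129 genes in all. The median log2 difference of the 76 was 0.15, close to the 0.13 of all genes. Among 19 genes of fatty acid oxidation, 5 had an unadjusted p under 0.05 (26.3%, against 16.5% of all genes). The smallest adjusted p of any list was that of ACADVL, the mitochondrial acyl-CoA dehydrogenase for very long chains, with 368, 377 and 406 TPM in K700E and 223, 268 and 268 TPM in WT (log2 difference 0.60, SE 0.12, limma adjusted p = 0.0728). Its groups did not overlap, and with GC correction the difference was 0.47 (limma adjusted p = 0.0445, and 0.107 with the replicate block added).

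In the list of sterol uptake, storage and efflux (15 of 18 tested) 3 genes had an unadjusted p under 0.05 (20%, against 16.5% of all genes). The smallest adjusted p was that of NCEH1, a cholesteryl ester hydrolase, at 5.50, 5.57 and 5.34 TPM in K700E and 3.77, 3.38 and 3.19 TPM in WT (log2 difference 0.54, SE 0.14, limma adjusted p = 0.125). The other 2, named after their values were seen, lay in opposite directions. NR1H3, which encodes a liver X receptor that senses oxysterols, averaged 11.6 ± 0.510 TPM in K700E and 6.68 ± 1.88 TPM in WT (limma adjusted p = 0.146, with GC correction 0.0297, and with the replicate block added 0.0887). NPC2, the soluble partner of NPC1 in the lysosome, averaged 56.8 ± 3.66 TPM in K700E and 89.9 ± 24.4 TPM in WT (limma adjusted p = 0.197). NPC1 and NPC2 thus lay on opposite sides of WT, each without overlap between groups, which also held for 24.0% of all genes.

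The remaining lists had their smallest adjusted p at genes with modest differences. DHDDS, which makes the dolichol chain, averaged 41.7 ± 4.95 TPM in K700E and 31.2 ± 2.98 TPM in WT (SD, n = 3 each; limma adjusted p = 0.237), the lowest of 13 isoprenoid branch genes. ELOVL1, an elongase of long saturated chains, averaged 106 ± 9.95 TPM in K700E and 82.9 ± 5.16 TPM in WT (limma adjusted p = 0.239), the lowest of 17 tested genes of fatty acid precursors and elongation. PAQR3, a Golgi anchor of SCAP, averaged 39.1 ± 9.14 TPM in K700E and 26.6 ± 7.28 TPM in WT (limma adjusted p = 0.327), the lowest of 12 genes of SREBP processing. DHDDS and ELOVL1 did not overlap between groups and PAQR3 did.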

How the data were processed

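RNA from 6 K562 libraries was sequenced as mRNA libraries, per the labels' protocols. The authors deposited TPM per gene in 1 table per genotype, each library scaled to a sum of 1000000. Tools in the submitters' processing notes are TopHat2 2.1, cutadapt 2.10, DESeq2 and featureCounts 2.0.1, with build hg19 (GRCh37). Per the file headers, the WT columns have names of the form the aligner STAR gives, so the aligner is not settled; if the tables differed in aligner, that could not be told apart from genotype. Both tables list the same gene IDs, and 58561 of 62111 (94.3%) matched a symbol. TPM times gene length gave whole reads for 100% of values within 0.01, so each library was scaled alone and values were compared across tables.

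Genes averaging 1 TPM or more entered limma 3.58.1 (R 4.3.3) as log2(TPM + 1), with empirical Bayes moderation, a trend and genotype only. This pseudocount understates changes of low genes. The procedure was tested on simulated data. The alternatives tried were a pseudocount of 0.1 or 5, a filter at 5 TPM or none, TMM and median-ratio scaling, no trend, limma-voom on recovered reads of genes averaging 10 or more, a replicate block, loess correction on GC content (span 0.5, GENCODE transcripts of a later build, 97.7% of tested genes), both of these together, protein-coding nuclear genes, and leaving out each library. Summaries used pandas 2.3.3 and scipy 1.17.1 under Python 3.11.15, with numpy 2.4.6, and figures matplotlib 3.10.9. Gene coordinates are those of the deposited table.

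The genes and lists were chosen with earlier results of these data known. Values per library are given for the 2 genes with the smallest adjusted p in each role group, for SREBF1 and SREBF2 and for genes past the threshold, and means for the others, and in each further list the gene with the smallest adjusted p is named. MSMO1, HMGCS1, SCD and FADS2 are also shown per library, chosen after their values were seen. P-values measure the spread between libraries, which may be technical and which assumes 3 independent libraries per group.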

Additional observations from a re-analysis of the deposited data

How the results depend on the processing

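No lipid gene passed the threshold under any of the 18 alternatives, where the smallest adjusted p was 0.0655 (NPC1, GC correction). The count at an unadjusted p under 0.05 was 5, and with a library left out it ran from 2 to 15, the highest without WT replicate 1, where 3760 of 15493 genes in all reached it. Among the 76 genes of neighbouring pathways 2 were called with GC correction (ACADVL and NR1H3; 3.6% of all genes were), against 0 with the values as deposited and 0 with GC correction and the block. Leaving out a library gave a median difference relative to all genes between 0.013 (WT replicate 2 left out) and 0.24 (WT replicate 1 left out), against 0.19 with all. The cause was not tested. Of the 31 genes, 20 kept their direction under every alternative. Rescaling moved the median of all genes from 0.13 to 0.00 (TMM) and turned 4 genes. EBP, FDFT1, SC5D and SREBF2 were at -0.055, -0.086, -0.037 and -0.035 with TMM, at -0.058, -0.089, -0.039 and -0.037 with median-ratio scaling, at -0.073, -0.094, -0.039 and -0.053 with limma-voom, and at -0.073, -0.10, -0.032 and -0.044 with GC correction, alone or with the block. With a library left out, 9 genes turned, 7 of them without WT replicate 2, and their log2 differences ranged from -0.070 to 0.47 for ACAT2, from -0.074 to 0.72 for CYP51A1, from -0.22 to 0.30 for FDFT1, from -0.023 to 0.40 for FDPS, from -0.21 to 0.055 for HSD17B7, from -0.23 to 0.38 for SC5D, from -0.33 to 0.12 for SCAP, from -0.015 to 0.32 for SQLE and from -0.070 to 0.43 for SREBF1. Same-numbered libraries deviated from their group means with correlations of 0.28, -0.19 and 0.30. Those of differently numbered libraries ran from -0.48 to 0.43. These values do not settle whether the numbers pair the libraries. With the replicate number as a block, 0 lipid genes were called and 67 genes in all, against 214 without it. Over all genes the calls numbered 544 with GC correction, 348 with limma-voom, 92 at 5 TPM, 86 with GC correction and the block, and 122 among protein-coding nuclear genes. They numbered 0 with no filter (4891 at an unadjusted p under 0.05) and 0 to 182 with a library left out.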
